A study of Homo sapiens with 12 samples.

Results

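The genes described here code for the proteins of the cytosolic ribosome, and they were followed in human kidney cells exposed to CsA. A gene was a member if its symbol was RPL or RPS followed by digits and an optional A or X, or was RPLP0, RPLP1, RPLP2 or RPSA. Of 19775 gene symbols on the array 52 met this rule through a probe set that carried 1 symbol, and 50 of these had a signal above 4 (log2) on at least 3 arrays. The 50 comprised 30 genes of the large subunit and 20 of the small subunit, among 10650 genes tested in all. RPL36A and RPLP2 did not pass, with means of 3.18 and 2.87 over 12 arrays, and the passing member with the lowest mean was RPL27A at 9.42. RPLP0, RPSA, RPL4, RPL5, RPL10 and RPS27A were not analysed here, because no probe set that carried their symbol alone was used.

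HK-2 cells, an immortalised epithelial line from human renal proximal tubule, were profiled on Affymetrix arrays in 4 groups of 3 biological replicates. The groups were CsA for 48 h, vehicle control for 48 h, CsA for 12 h and vehicle control for 12 h, and every group was 24 h past seeding, near confluence, when exposure began. CsA was taken to mean cyclosporine A, an immunosuppressive drug whose complex with cyclophilin blocks calcineurin, and no dose is given with these arrays. The comparison addresses how a drug that can harm the kidney changes gene expression in tubular cells.

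The ribosome reads messenger RNA in its small subunit and joins amino acids in its large subunit. Each subunit is a ribosomal RNA core coated with proteins, most of which are needed in equal numbers. Most vertebrate ribosomal protein mRNAs begin with a cytosine followed by a run of pyrimidines, the terminal oligopyrimidine (TOP) motif, through which mTORC1 and the RNA-binding protein LARP1 control their translation. Proliferating cells devote much of their transcription to these genes. Their genomes also hold many processed pseudogene copies, so array probes for one such gene can bind transcripts of near-identical sequence.

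The annotated start sites show which members begin with that motif, and they are printed because the motif is the feature that the genes share at their start. Of the 50 members 44 had a promoter entry in RefSeq, and 31 of these (70.5%) had a C at the annotated start followed by at least 4 further pyrimidines (C or T) on the gene's strand. The share was 5.44% of the tested genes that had an entry and 4.07% of all 35116 entries. With a looser definition, a C and at least 6 further pyrimidines beginning within 10 bases of the start, 36 members (81.8%) held it, against 14.2% of the tested genes with an entry. In the large subunit 17 of 25 members with an entry had the stricter form, and in the small subunit 14 of 19 did. A match describes these letters and is no measurement of translation.

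Each sequence below covers 15 bases before the annotated start and 15 from it on, 5′ to 3′ on the gene's strand, in GRCh38.p14, with capitals marking the run that opens at the start. The first 9 open with the motif. RPS6, the substrate of the S6 kinases below mTORC1, starts within chr9:19380222-19380251 (minus strand). RPS3, at the mRNA entry channel, lies at chr11:75399503-75399532 (plus). RPS24, mutated in some families with Diamond-Blackfan anaemia, lies at chr10:78033848-78033877 (plus) and RPS14, lost in the 5q- syndrome, at chr5:150449725-150449754 (minus). RPLP1, an acidic stalk protein, lies at chr15:69452803-69452832 (plus), RPL12, at the base of the stalk, at chr9:127451392-127451421 (minus) and RPL18 at chr19:48619164-48619193 (minus). RPL35A, another Diamond-Blackfan gene, lies at chr3:197950175-197950204 (plus) and RPL27A at chr11:8682777-8682806 (plus).
RPS6: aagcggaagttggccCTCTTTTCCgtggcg
RPS3: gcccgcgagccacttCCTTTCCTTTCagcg
RPS24: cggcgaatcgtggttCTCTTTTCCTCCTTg
RPS14: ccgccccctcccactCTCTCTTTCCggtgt
RPLP1: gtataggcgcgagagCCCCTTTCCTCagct
RPL12: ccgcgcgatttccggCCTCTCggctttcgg
RPL18: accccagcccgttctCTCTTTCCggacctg
RPL35A: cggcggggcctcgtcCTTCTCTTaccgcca
RPL27A: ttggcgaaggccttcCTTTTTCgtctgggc

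The next 3 are shown because they lack the motif, in the stricter form defined above, at the annotated start. RPL3 opens with a C and a pyrimidine run shorter than that form requires, so no capitals mark it. RPL3, a protein near the peptidyl transferase centre, lies at chr22:39319609-39319638 (minus). RPL11, which with RPL5 binds 5S rRNA and can hold back MDM2, lies at chr1:23691764-23691793 (plus), and RPS29, a zinc-binding protein, at chr14:49598696-49598725 (minus). An annotated start can lie some bases from the start used in these cells, and the start used was not measured.
RPL3: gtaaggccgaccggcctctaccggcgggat
RPL11: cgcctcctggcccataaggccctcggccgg
RPS29: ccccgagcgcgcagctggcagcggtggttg

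The arrays were alike as a whole. Their medians lay between 2.85 and 2.96 (log2), and 38.3% to 38.8% of probe sets were above 4. All 5 epithelial markers (KRT8, KRT18, KRT19, CDH1 and EPCAM) passed the filter. The 7 defining proximal tubule markers (LRP2, CUBN, AQP1, GGT1, ANPEP, SLC34A1 and SLC5A2) were all below 4 on every array, so the labelled tubule identity is not visible in these markers. None of the 3 leukocyte markers passed, PECAM1 alone of the 3 endothelial markers passed with 4.38 to 5.08, and COL1A1 and DCN passed among 4 fibroblast markers, at 7.20 to 7.94 and 7.67 to 9.97. In bulk samples a change in the mix of cells and a change in RNA per cell cannot be told apart.

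Ribosomal protein genes were among the brightest signals of every array. The median member lay at the 99.8 percentile of all probe sets on each of the 12 arrays, and 48 of 50 had a mean of at least 13. The range of a member over 12 arrays had a median of 0.22 (log2) and was under 0.5 for 48 of 50. Member means reached 15.55, while the highest signal on an array was 15.75 to 16.03, and how far the top of the scale narrows these ranges was not tested. Dimmer probe sets of some members moved more over time, as given for RPL37 further on. The median SD between replicates was 0.034 under CsA and 0.045 in control at 48 h, and 0.035 under CsA and 0.046 in control at 12 h. Over all genes tested the same SD was 0.286, 0.213, 0.117 and 0.123 in these 4 groups. It was 0.137, 0.118, 0.060 and 0.065 over the 195 other genes with a mean of at least 13.

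One member stood apart in its spread. RPL27A was at 9.38, 9.35 and 10.01 under CsA and at 8.85, 9.45 and 9.85 in control at 48 h, and at 9.48, 9.40 and 9.25 under CsA and 9.50, 9.35 and 9.21 in control at 12 h. The 48 h groups overlapped widely, with SDs of 0.37 under CsA and 0.50 in control, and the range over all arrays was 1.16. The other members of low mean were RPL36 at 12.57 and RPL29, a heparin-binding protein, at 13.40.

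**Figure D1:**
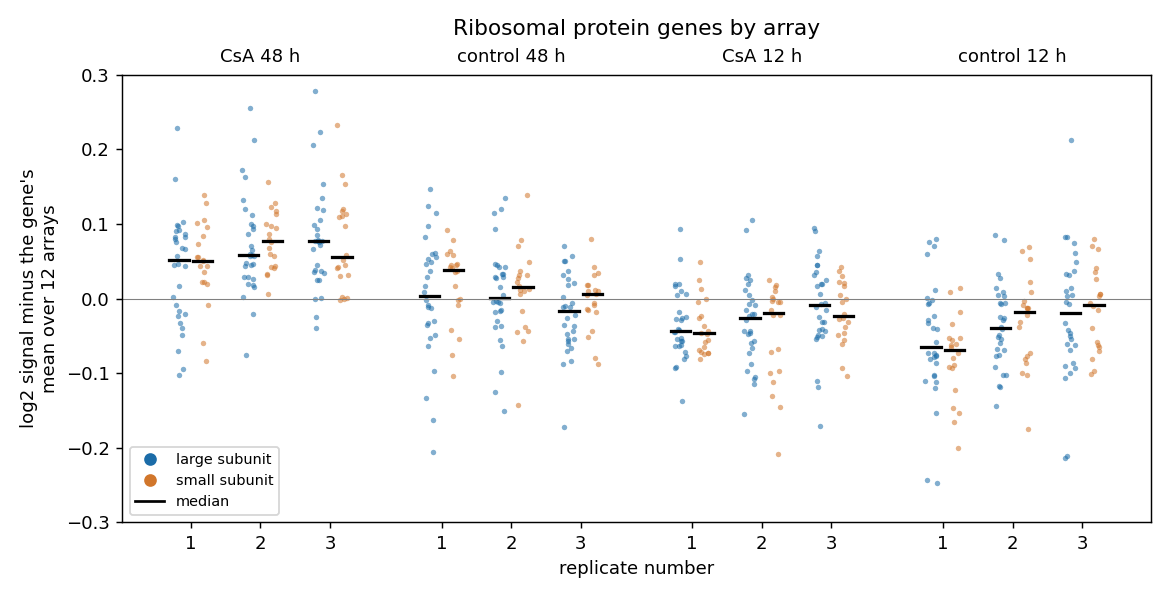
Log2 signal of each ribosomal protein gene minus its own mean over 12 arrays (y axis), by replicate (x axis) in the 4 groups; points are genes of the large (blue) and small (orange) subunit and black bars are medians. The medians of the 3 CsA arrays at 48 h lie above those of the 3 control arrays at 48 h; 3 points of RPL27A outside ±0.3 are not drawn.

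After 48 h nearly all ribosomal protein genes had slightly higher values under CsA than in control. Of the 50 members 48 had a mean difference above 0, against 45.4% of all genes tested. The median difference was 0.058 on the log2 scale (1.041-fold), against -0.018 over all genes and -0.025 over the other bright genes, of which 40.5% were above 0. The changes ran from -0.05 to 0.20, the upper end being RPL27A, whose change was -0.07 without control 48 h replicate 1. No member passed limma's test (0 of 50, against 0% of all genes, smallest adjusted p = 0.999), and 0 had an unadjusted p under 0.05. Over all 10650 genes limma called 0, with 120 higher (1.13%) and 143 lower (1.34%) at an unadjusted p under 0.05. The median standard error of a member's change was 0.082, which is larger than the median change, and 3 arrays a group limit what can be told apart.

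In the median over the members the arrays separated by treatment at 48 h. The median deviation of the members from their own means was 0.051, 0.062 and 0.076 on the 3 CsA arrays, against 0.023, 0.012 and -0.010 on the 3 control arrays. The groups did not overlap, and the SD of this median between replicates, pooled over the 4 groups, was 0.020. On the CsA arrays 37, 48 and 45 of 50 members were above their own mean, against 28, 29 and 22 on the control arrays. The members were read from the same RNA and share their array's scaling, so they are not independent observations.

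All 3 CsA arrays were above all 3 control arrays for 16 of 50 members at 48 h, against 1.97% of all genes tested, and the reverse held for 0 members, against 2.48%. Members varied less between replicates than other genes, as given above. Same-numbered CsA and control arrays deviated together across all genes, so differences were also read within the 3 numbered pairs. Over the 50 members alone the correlation of these deviations at 48 h was 0.60, -0.18 and 0.75 in pairs 1, 2 and 3, so members of pair 2 did not deviate together. The members' median difference was 0.028, 0.069 and 0.086 in pairs 1, 2 and 3, with 40, 41 and 46 of 50 above 0. Over all genes the pair medians lay at 0, 0.001 and -0.033. In all 3 pairs 30 members were higher under CsA, against 13.3% of all genes, and 0 were lower, against 16.2%. With the pairs as a replicate block limma again called 0 members at either time.

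**Figure D2:**
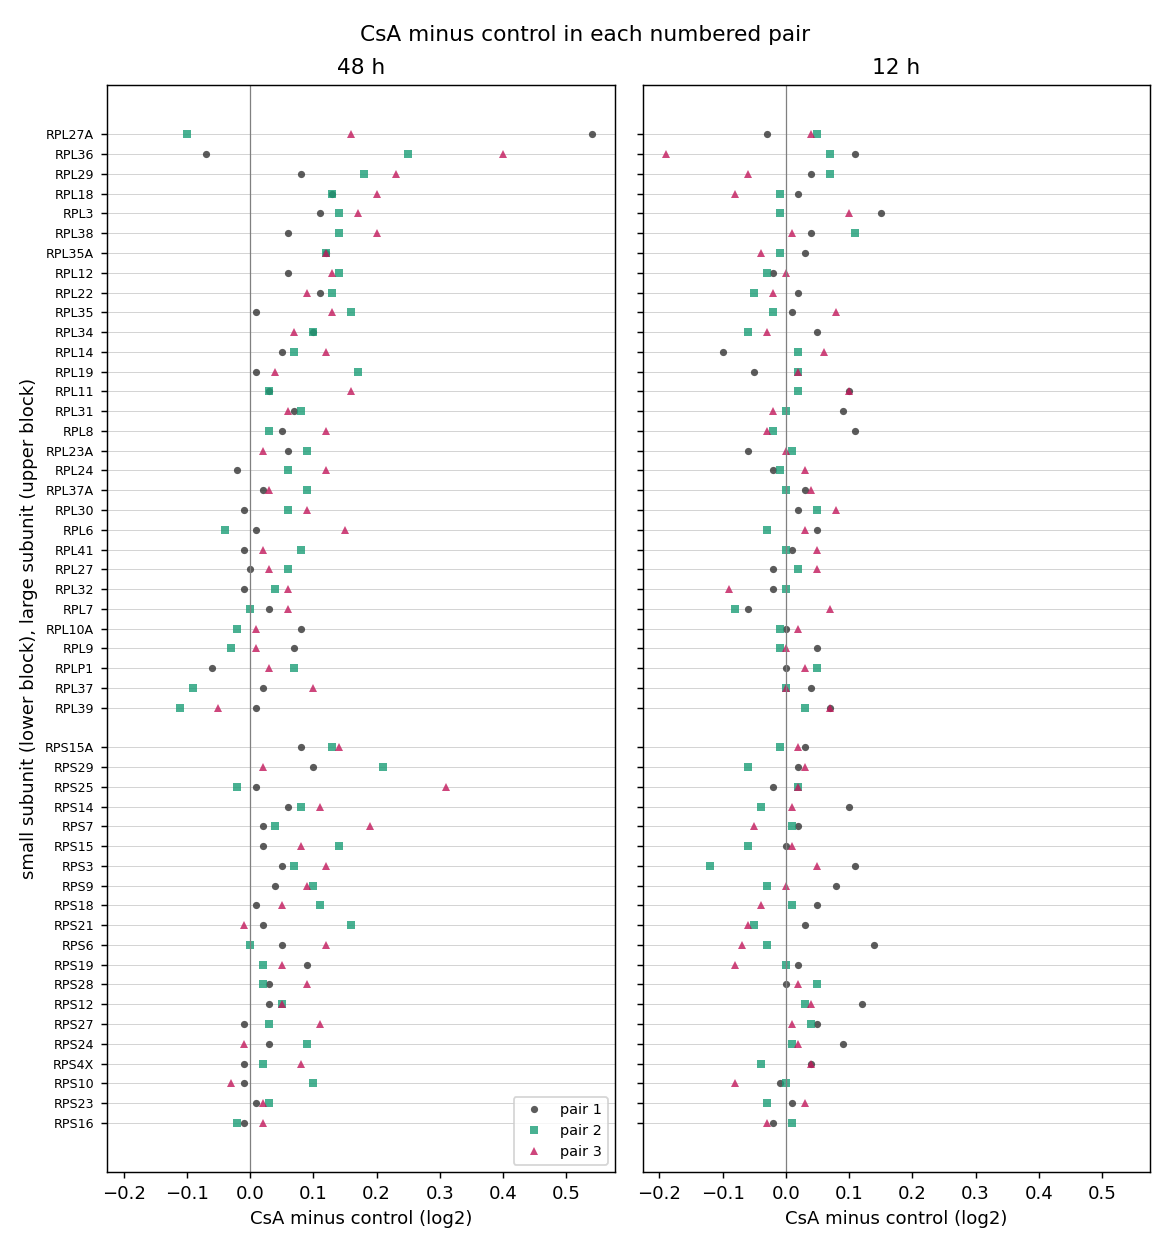
CsA minus control in log2 signal (x axis) for each ribosomal protein gene (rows, ordered within each subunit by the 48 h mean) in the 3 numbered pairs, at 48 h (left) and 12 h (right). At 48 h most points lie right of 0, with pair medians of 0.028, 0.069 and 0.086, and at 12 h they lie on both sides of 0.

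RPL18, a protein of the large subunit, had the largest statistic of any member at 48 h. It was at 14.63, 14.69 and 14.66 under CsA, against 14.50, 14.56 and 14.47 in control. Every CsA array was above every control array, and the pairs differed by 0.13, 0.13 and 0.20. The change was 0.15 with a standard error of 0.082 and did not pass limma's test (adjusted p = 0.999). A dimmer probe set of RPL18, with a mean of 9.11, differed by 0.03 at 48 h and by -0.05 at 12 h.

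RPL3 was at 13.98, 14.01 and 13.96 under CsA, against 13.88, 13.87 and 13.79 in control at 48 h. The groups did not overlap, and the pairs differed by 0.11, 0.14 and 0.17, a change of 0.14 (SE 0.079, limma adjusted p = 0.999). RPL35A gave 13.95, 13.98 and 13.99 under CsA, against 13.83, 13.86 and 13.87 in control. Its difference was the same in each pair to 2 decimals, 0.12.

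RPL12 was at 15.16, 15.12 and 15.12 under CsA and at 15.10, 14.99 and 14.99 in control at 48 h, again without overlap. The change was 0.11 (SE 0.080). RPL22, a large subunit protein that also binds a small RNA of Epstein-Barr virus, overlapped between groups, with 14.15, 14.22 and 14.32 under CsA and 14.03, 14.09 and 14.23 in control. Its pairs nevertheless all ran one way, at 0.11, 0.13 and 0.09.

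RPL11, RPL41 and RPLP1 had smaller differences. RPL11 differed by 0.07 (SE 0.080), RPL41, a very short basic protein, by 0.03 (SE 0.077) and RPLP1 by 0.01 (SE 0.087). The pairs of RPLP1 ran both ways, at -0.06, 0.07 and 0.03. The 3 members of low mean had larger mean differences than RPL18, with wider pairs. RPL27A differed by 0.20 (SE 0.245), with pairs at 0.54, -0.10 and 0.16. RPL36 differed by 0.19 (SE 0.132), with pairs at -0.07, 0.25 and 0.40, and RPL29 by 0.16 (SE 0.099), with pairs at 0.08, 0.18 and 0.23.

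In the small subunit RPS15A and RPS29 had the largest statistics at 48 h. RPS15A was at 14.81, 14.79 and 14.83 under CsA, against 14.74, 14.66 and 14.69 in control, with no overlap and a change of 0.11 (SE 0.076). RPS29 was at 14.63, 14.67 and 14.65 under CsA, against 14.53, 14.46 and 14.62 in control. The lowest CsA array was just above the highest control array, and the pairs of RPS29 spread from 0.02 to 0.21. Neither passed limma's test (adjusted p = 0.999 for both).

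RPS3 was at 14.67, 14.66 and 14.70 under CsA, against 14.62, 14.60 and 14.57 in control at 48 h, and RPS14 at 14.69, 14.68 and 14.71, against 14.63, 14.60 and 14.60. Both groups of arrays were apart in each gene, with changes of 0.08 for RPS3 (SE 0.083) and 0.08 for RPS14 (SE 0.080). RPS9, which binds 18S rRNA early in assembly, differed by 0.08 (SE 0.095), also without overlap.

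The remaining small subunit genes named here had smaller differences at 48 h. RPS6 differed by 0.06 (SE 0.093), RPS19, the gene most often mutated in Diamond-Blackfan anaemia, by 0.05 (SE 0.089) and RPS12 by 0.04 (SE 0.080). RPS27, a zinc finger protein, differed by 0.04 (SE 0.082), RPS24 by 0.04 (SE 0.076) and RPS4X, encoded on the X chromosome, by 0.03 (SE 0.085).

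The 2 members not above 0 at 48 h were RPL39, which lines the exit tunnel of the large subunit, and RPS16, and both are named after their values were seen. RPL39 lay between 14.95 and 15.02 under CsA and reached 15.09 in control. The arrays overlapped, and the change was -0.05 (SE 0.080). RPS16 had means of 15.01 under CsA and 15.01 in control. Its other probe sets past the filter, with means of 14.46 and 14.57, differed by 0.11 and 0.03 at 48 h.

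**Figure D3:**
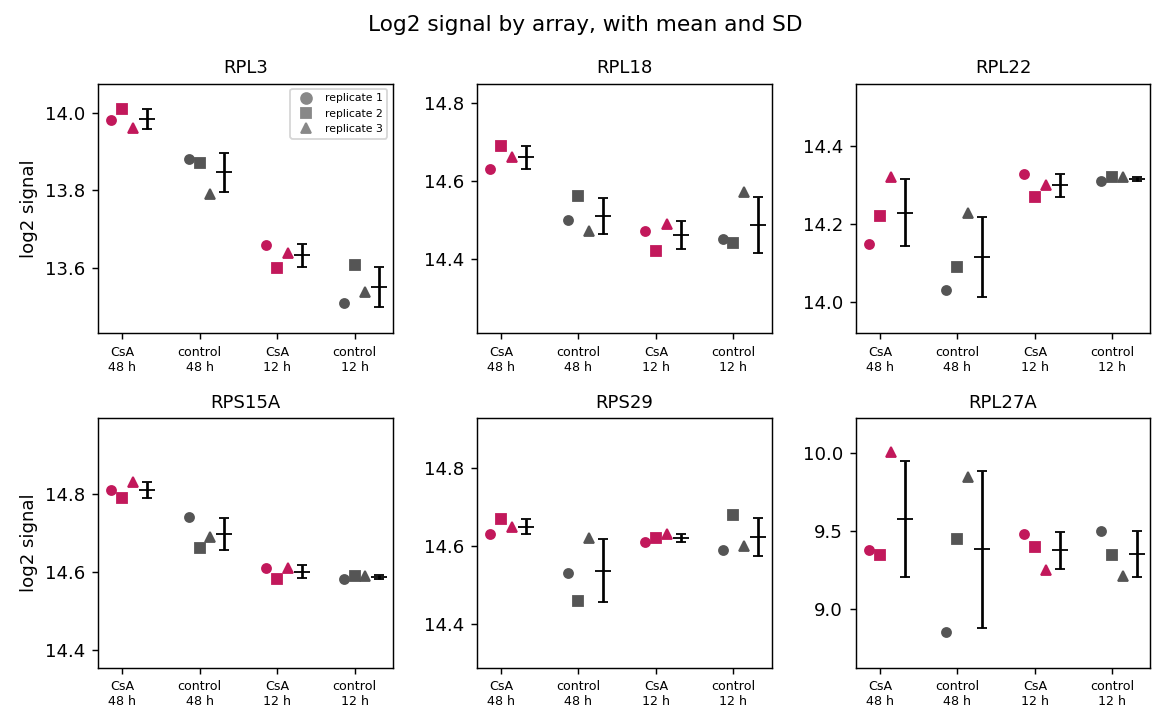
Log2 signal (y axis) of RPL3, RPL18, RPL22, RPS15A, RPS29 and RPL27A on each array, CsA in red and control in grey, with the mean and SD of each group (n = 3) to its right. RPL3, RPL18, RPS15A and RPS29 have 48 h groups that do not overlap; axes span 0.64 log2 units except for RPL27A, whose axis spans 1.60.

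After 12 h the members lay close to 0. Of 50 members 31 had a difference above 0, against 45.5% of all genes, and the median was 0.013, against -0.014 over all genes and 0.001 over the other bright genes. The changes ran from -0.04 to 0.08. limma called 0 members and 0 of 10650 genes (adjusted p = 1 for every member). At an unadjusted p under 0.05 there were 0 members, with 55 genes higher (0.516%) and 83 lower (0.779%). With the replicate block limma called 3 genes at 12 h, none of them a member.

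On the arrays at 12 h the members' median deviation was -0.045, -0.022 and -0.013 under CsA and -0.069, -0.030 and -0.009 in control, so the groups overlapped. The pair medians were 0.024, -0.001 and 0.015, with 36, 23 and 33 members above 0. Without CsA 12 h replicate 3 the median was -0.004 with 22 members above 0, and without control 12 h replicate 1 it was -0.004 with 23. In all 3 pairs 10 members were higher under CsA and 3 were lower, against 18.9% and 22.3% of all genes. The sign of the members' median at 12 h thus rested on single arrays.

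All CsA arrays were above all control arrays for 2 members at 12 h, against 5.4% of all genes, and below them for 1, against 6.52%. RPL11 was one of these, at 14.32, 14.33 and 14.34 under CsA, against 14.22, 14.30 and 14.24 in control, a change of 0.08 (SE 0.080). The others, named after their values were seen, were RPL30 at 0.05 and RPS10 at -0.03. RPL3 had a change of 0.08 (SE 0.079) with overlapping arrays, at 13.66, 13.60 and 13.64 under CsA and 13.51, 13.61 and 13.54 in control.

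In the small subunit the largest statistics at 12 h belonged to RPS12 and RPS24. RPS12 differed by 0.06 (SE 0.080), with pairs at 0.12, 0.03 and 0.04, and RPS24 by 0.04 (SE 0.076). RPS3 showed how far pairs could disagree at this time, with 0.11, -0.12 and 0.05. RPS6 did the same with 0.14, -0.03 and -0.07.

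The difference between both CsA effects, 48 h minus 12 h, was above 0 for 43 of 50 members, against 49.5% of all genes, with a median of 0.056, against -0.002 over all genes. limma called 0 members and 0 genes for this difference. At an unadjusted p under 0.05 there were 0 members, with 80 genes higher (0.751%) and 84 lower (0.789%). RPL18 had the largest statistic in the large subunit, at 0.18 (SE 0.115), followed by RPL35A at 0.13 (SE 0.112). RPS29 at 0.11 (SE 0.116) and RPS15A at 0.10 (SE 0.108) led the small subunit. The values at 48 h and at 12 h come from separate arrays.

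Both subunits lay mostly above 0 at 48 h. The large subunit had a median of 0.067, with 29 of 30 genes above 0, and the small subunit a median of 0.056, with 19 of 20. The pair medians were 0.041, 0.073 and 0.096 in the large subunit, and 0.025, 0.057 and 0.078 in the small subunit. In the large subunit 10 of 30 members, and in the small 6 of 20, had all CsA arrays above all control arrays, against 1.97% of all genes. The reverse held for 0 members of either subunit, against 2.48%. At 12 h 18 of 30 large (median 0.015) and 13 of 20 small subunit members (median 0.010) were above 0.

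The balance between subunits can be read on each array as the median deviation of the large minus that of the small subunit. At 48 h it was 0.001, -0.020 and 0.022 under CsA and -0.035, -0.014 and -0.023 in control. The groups overlapped through CsA replicate 2 and control replicate 2. At 12 h it was 0.003, -0.007 and 0.014 under CsA and 0.003, -0.022 and -0.012 in control, again with overlap. The pooled SD between replicates was 0.014. The difference of subunit medians in the fit was 0.011 at 48 h, and it was -0.026 over the members that have a probe set without a suffix.

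Most member probe sets share probes with other transcripts by design: 28 of the 50 carry the suffix s and 13 the suffix x, which the maker gives to sets that bind several transcripts, and 9 carry none. RPL3, RPL12, RPL22, RPL29, RPS4X and RPS12 were measured by x sets, so signal from near-identical copies cannot be told apart from that of the gene in these. Another 40 probe sets of 25 members passed the filter. At 48 h 37 of these 40 were above 0 with a median of 0.082, and at 12 h 18 of 40 were, with a median of -0.003. They came from the same arrays and often from the same transcripts, so they repeat the measurement and are not new samples.

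Among members with an annotated start, the 48 h difference was above 0 for 29 of 31 with the motif at that start, with a median of 0.067. It was above 0 for 13 of 13 without it, with a median of 0.047. At 12 h 19 of 31 with the motif and 8 of 13 without it were above 0.

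**Figure D4:**
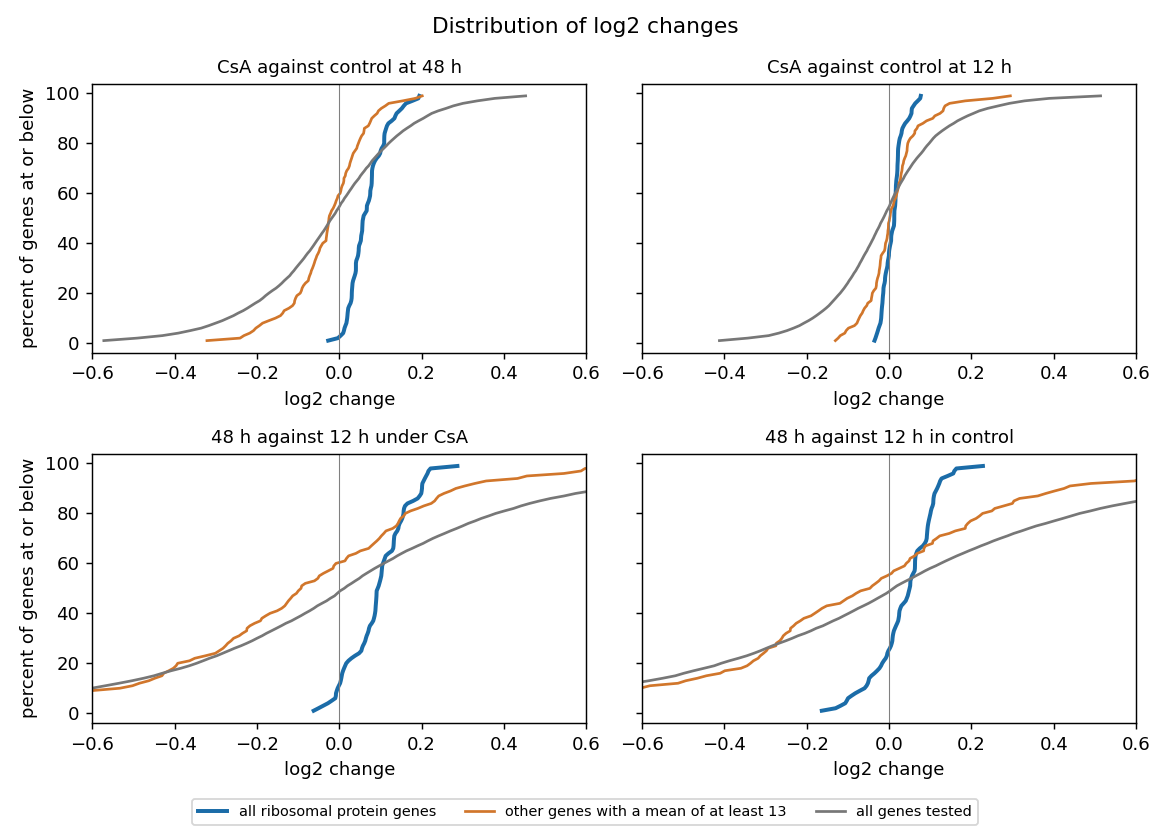
Percent of genes at or below a log2 change (percentiles 1 to 99, x axis drawn from -0.6 to 0.6) for ribosomal protein genes (blue), the 195 other genes with a mean of at least 13 (orange) and all 10650 genes tested (grey), in 4 comparisons. The blue curve crosses the middle at 0.058 for CsA at 48 h and at 0.013 at 12 h, and it is steeper than the other curves in every panel.

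The comparison over time asked how the genes differed between 48 h and 12 h of exposure to CsA or vehicle. In CsA cells 44 of 50 members were higher at 48 h than at 12 h, with a median of 0.093, and in control cells 37 of 50 were, with a median of 0.050. Over all genes 51.3% were above 0 in both, with medians of 0.012 under CsA and 0.010 in control, and over the other bright genes the medians were -0.093 and -0.047. limma called 1 member, RPL3, in each, and it was higher at 48 h. The share of all genes called was 14% under CsA (6.64% higher, 7.41% lower) and 25.8% in control (12.4% higher, 13.5% lower).

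All 48 h arrays were above all 12 h arrays for 30 of 50 members under CsA, against 16% of all genes, and below them for 0, against 18.7%. In control cells the counts were 14 above and 5 below, against 25% and 24.9% of all genes. Whether both time courses differ is tested by the difference of CsA effects given above, for which no member passed.

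RPL3 was the member with the largest time change. Under CsA it was at 13.98, 14.01 and 13.96 at 48 h, against 13.66, 13.60 and 13.64 at 12 h, a rise of 0.35 (SE 0.079, 1.277-fold, limma adjusted p = 0.0200). In control cells it was at 13.88, 13.87 and 13.79 at 48 h, against 13.51, 13.61 and 13.54 at 12 h, a rise of 0.29 (SE 0.079, 1.225-fold, limma adjusted p = 0.0241). The 48 h arrays were above the 12 h arrays in both treatments.

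The calls of RPL3 were close to the threshold in the main fit and depended on the setting. In control cells the limma adjusted p was 0.0799 without control 12 h replicate 1, 0.0726 without replicate 3 of that group, 0.0739 without control 48 h replicate 1 and 0.0720 without replicate 2 of that group. Under CsA it lay between 0.0558 and 0.0700 without any 1 of CsA 12 h replicates 1, 2 and 3 or CsA 48 h replicates 1 and 2. The change itself stayed at 0.27 to 0.37 in these fits. With only the groups compared in the fit the limma adjusted p was 0.101 under CsA and 0.0554 in control. In control it was 0.0515 after centring on array medians. With a brighter probe set that carries several symbols the change in control was smaller, at 0.20 (limma adjusted p = 0.088). Other settings gave smaller p-values. With no filter the limma adjusted p was 0.00217 in control and 0.00221 under CsA. With a variance trend and robust moderation it was 0.00321 in control and 0.0036 under CsA.

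Under CsA 5 members had an unadjusted p under 0.05, all higher at 48 h, against 15.6% of all genes. They were RPL3, RPL12 (0.22, SE 0.080), RPS15A (0.21, SE 0.076), RPL18 (0.20, SE 0.082) and RPS9 (0.21, SE 0.095), and for all but RPL3 the limma adjusted p was between 0.0892 and 0.147. RPS15A was at 14.81, 14.79 and 14.83 at 48 h under CsA, against 14.61, 14.58 and 14.61 at 12 h. These arrays did not overlap, nor did those of RPL18.

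In control cells RPL22 was the only member with an unadjusted p under 0.05 in the other direction, against 21.4% of all genes. It was at 14.03, 14.09 and 14.23 at 48 h, against 14.31, 14.32 and 14.32 at 12 h, a change of -0.20 (SE 0.088, limma adjusted p = 0.119). The 48 h arrays were all lower. Its other 4 probe sets disagreed in sign, with -0.17 and -0.07 for a pair with the suffix x, and 0.09 and 0.32 for the others. RPS9 and RPS27 had the largest statistics in the small subunit, at 0.16 (SE 0.095) and 0.12 (SE 0.082).

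Different probe sets of 1 gene disagreed most for RPL37, named after its values were seen. Its brightest set changed over time by 0.10 under CsA and 0.11 in control. A dimmer set with a mean of 7.53 changed by 1.58 under CsA and 1.56 in control, and one with a mean of 7.76 by 1.42 and 1.34. Which transcript the dimmer sets measure was not tested.

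Genes linked to the ribosome were read from lists of textbook members. Of 15 tested genes for elongation factors and other TOP mRNAs, 13 were above 0 at 48 h under CsA, against 45.4% of all genes. Their median was 0.059. At 12 h 9 were above 0, against 45.5%, with a median of 0.032. EIF4B, an initiation factor, differed by 0.22 at 48 h (SE 0.09, limma adjusted p = 0.999). For CsA limma called 0 genes of this list at either time. Over time 14 of 15 were above 0 under CsA (median 0.221, 3 called higher by limma) and 15 of 15 in control (median 0.185, 5 called higher). Over all genes 51.3% were above 0 in both, with 6.64% called higher under CsA and 12.4% in control. EEF2, the elongation factor of translocation, rose by 0.44 in control cells (SE 0.11, limma adjusted p = 0.0209).

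Paralogs and fusion genes outside the naming rule had 6 of 8 tested members above 0 at 48 h, against 45.4% of all genes. Their median was 0.182. At 12 h 3 of 8 were above 0, against 45.5%, with a median of -0.008. FAU, which encodes RPS30 fused to a ubiquitin-like protein, differed by 0.26 at 48 h (SE 0.08, limma adjusted p = 0.999). RPL36AL, the autosomal copy of RPL36A, differed by 0.20 at 48 h (SE 0.10). Over time in control cells FAU fell by 0.42 (SE 0.08, limma adjusted p = 0.00736). RPL39L, a paralog of RPL39, fell by 0.67 (SE 0.14, limma adjusted p = 0.00803). Under CsA RPL39L changed over time by -0.51 (SE 0.14, limma adjusted p = 0.0347). Of the 8 tested, 2 were above 0 over time in control (median -0.122, 2 called lower). Under CsA 4 were above 0 (median -0.009, 1 called lower). Over all genes 51.3% were above 0 in both, with 13.5% called lower in control and 7.41% under CsA.

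Regulators of mTORC1 and of TOP mRNAs had 6 of 12 members above 0 at 48 h, against 45.4% of all genes. Their median was -0.012. At 12 h 4 of 12 were above 0, against 45.5%, with a median of -0.045. EIF4EBP1, a repressor of cap-dependent translation, had the largest statistic at 12 h with a change of 0.56 (SE 0.43), and EIF4EBP2 at 48 h with 0.34 (SE 0.21). limma called 0 genes of this list for CsA at either time, with 0 at an unadjusted p under 0.05.

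Mitochondrial ribosomal proteins, which serve the separate ribosome of mitochondria, lay mostly below 0. Of 76 tested 29 (38.2%) were above 0 at 48 h, against 45.4% of all genes, with a median of -0.037. At 12 h 11 (14.5%) were above 0, against 45.5%, with a median of -0.079. MRPS25 differed by -0.32 at 12 h (SE 0.10) and MRPL19 by -0.35 at 48 h (SE 0.12). limma called 0 of them for CsA at either time, with 1 lower at 48 h and 3 lower at 12 h at an unadjusted p under 0.05, against 1.34% and 0.779% of all genes. Over time 22 of 76 were above 0 under CsA (median -0.151, 1 called higher and 13 lower) and 15 of 76 in control (median -0.239, 2 called higher and 21 lower). Of all genes 7.41% were called lower under CsA and 13.5% in control. The cytosolic medians over the same time were 0.093 and 0.050.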

How the data were processed

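Messenger RNA from 12 HK-2 cultures was measured on Affymetrix arrays. The deposited log2 values, a scale read from the numbers themselves, were made by the authors with GCRMA, per the submitters' processing notes. Its version and options are not given in the labels. They were used as deposited. The labels give no genome build for the arrays, so probe sets have no coordinates.

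Of 54675 probe sets, 62 controls were left out, 41091 carried 1 symbol, 1801 several and 11721 none in the platform annotation, and 54 had a symbol not in the RefSeq gene table (0 updated). Per symbol 1 probe set was used, the brightest by its mean over 12 arrays, if above 4 on at least 3 arrays. A further 64 probe sets carry a ribosomal protein symbol with other symbols and are named for no gene.

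Group differences were fitted in limma 3.58.1 under R 4.3.3 (4 group means, all 12 arrays, 8 residual and 2.37 prior degrees of freedom, two-sided, Benjamini-Hochberg over 10650 genes, threshold 0.05), after a check on simulated data. All p-values measure the spread between cultures labelled as biological replicates. The replicate numbers are in the labels, which give them no meaning, so the pairing comes from the data: deviations of same-numbered CsA and control arrays correlated across genes at 0.78, 0.54 and 0.74 at 48 h and 0.36, 0.52 and 0.59 at 12 h. Between times these correlations lay between -0.14 and 0.22, so the block was set within each time (4 residual degrees of freedom). Alternatives changed the filter, moderation, scaling, probe set, samples and pairing. The members, lists and alternatives were chosen with earlier results of these data known.

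Named genes are a fixed set of members of known role, the 2 members per subunit with the largest statistic in each comparison, the member per subunit with the widest range, the 3 of lowest mean, those that failed the filter, and up to 2 genes of each other list with the largest statistic.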

Additional observations from a re-analysis of the deposited data

Results flagged for a closer look

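RPL12, a protein at the base of the ribosomal stalk, stood out because its CsA difference ran one way in every pair at 48 h and the other way in every pair at 12 h. It was 0.06, 0.14 and 0.13 at 48 h and -0.02, -0.03 and less than 0.01 below 0 at 12 h. The difference of both effects was 0.13 (SE 0.113) and did not pass limma's test (adjusted p = 1), and the 12 h values are within the spread between replicates. The other probe set of RPL12 gave 0.13 at 48 h and -0.03 at 12 h.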

How the results depend on the processing

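Of the alternative values for comparisons as a whole 642 were alike and 93 moved, and of those for single genes 3108 were alike, 16 moved, 13 gained a call and 22 lost one. No called change of a member named here turned its sign, but changes that were not called did. RPL35A over time in control was -0.36 without a suffix, called lower by limma (adjusted p = 0.0199), and RPL22 was then 0.32. RPS24 at 12 h was -0.13 without a suffix and -0.05 with the mean of probe sets, and RPL27A at 48 h -0.07 without control replicate 1. With a replicate block within each time (the pairing) limma called 3 genes at 12 h instead of 0, and 5 with only the arrays compared and the block, 8 with the block, a variance trend and robust moderation (chosen after the data were seen), and 2 for the difference of effects in that last fit. The block changed no call of a ribosomal protein gene, and comparisons of 2 times could not be fitted within it. Limma called 1 gene at 12 h with only the groups compared, and 1 with no filter.

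Over the 20 members that have a probe set without a suffix, those above 0 were 18 at 48 h, 9 at 12 h, 19 for the difference of effects, 15 over time under CsA and 10 over time in control. Medians were then 0.085 at 48 h, 0.091 for the difference and -0.002 over time in control, and large minus small subunit -0.026, -0.035, 0.024 (time, CsA) and 0.091 (time, control). Centring on array medians gave 0.085 at 48 h, 0.078 for the difference and 0.023 over time in control; quantile normalization gave 0.062 over time under CsA, 0.019 in control and a subunit difference of 0.029 between effects. By these scalings 49 and 43 members were above 0 at 48 h, and 35 and 26 at 12 h. Large minus small was 0.016 between effects and -0.022 over time in control with probe sets of several symbols (added after the data were seen), and -0.041 over time under CsA with the mean of probe sets. In the main fit 1 of 50 members was called over time in control, against 25.8% of all genes, and 1 under CsA, against 14%. Members called in control were 0 with only the groups compared, 4 with no filter and 5 with a trend and robust moderation. They were 0 with median centring, 2 with the mean of probe sets and 3 of 20 without a suffix. Under CsA they were 0 with only the groups compared, 9 with no filter and 7 with a trend and robust moderation. They were 2 with the mean of probe sets and 2 of 67 with several symbols. All genes called over time under CsA were 30 with only the groups compared and 988 of 19775 with no filter. Across the settings other than leaving out arrays they were 30 to 1582 under CsA and 1883 to 3070 in control.

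Leaving out an array or a pair, the median was 0.043 to 0.074 at 48 h (45 to 49 above 0), -0.004 to 0.019 at 12 h (22 to 36), 0.037 to 0.070 for the difference (38 to 47), 0.088 to 0.112 over time under CsA (41 to 49) and 0.035 to 0.064 in control (32 to 37). Large minus small was 0.002 to 0.013, -0.006 to 0.021, -0.032 to 0.026, -0.022 to 0.002 and -0.041 to -0.016. Members called were 0 to 1 over time under CsA and 0 to 2 in control, and genes 159 to 4527 and 778 to 4881. Limits are 3 arrays a group, an unknown dose, signals near the top of the scale, and probes shared with near-identical copies.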
